A study of Ovis aries with 26 samples.

Results

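The pancreas of cloned CFTR-/- sheep fetuses was compared between 120 and 80 days of gestation, cell type by cell type. All libraries of CFTR-/- fetuses at 80 days were used (3 libraries, 3 animals), and at 120 days those that the study lists as cloned (5 libraries, 4 animals), which are 8 of the 26 libraries of the series. Fetus 1 at 120 days gave 2 separately processed samples, and these were added together. The 2 naturally bred CFTR-/- fetuses at 120 days were left out. The 7 cloned fetuses gave 20867 cells after filtering, and 17237 cells of control fetuses of the same ages were used where a change with age was set against that of animals with CFTR.

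All 7 cloned fetuses were male and came by nuclear transfer from a single CFTR-/- fibroblast line of the American Romney breed, made by targeting exon 2. Fetuses 2 and 3 at 80 days shared a recipient ewe, as did fetuses 2 and 3 at 120 days, so the fetuses are separate animals of 1 clone from few pregnancies. No cloned control with CFTR was compared. The controls were naturally bred: 2 WT and 2 CFTR+/- fetuses at 80 days and 3 WT fetuses at 120 days, 1 of them female. Controls 2, 3 and 4 at 80 days were triplets. Controls 1 and 2 at 120 days carry the same animal number with different suffixes, as littermates do in the study. The study digested the tissue with either collagenase or Liberase and lysed red blood cells, and the libraries were made with 10x kits of chemistry v3 or v3.1. Which enzyme and which kit were used for which sample was not given in the sources used here, and their part in the differences was not tested.

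CFTR is the chloride and bicarbonate channel of the duct cell surface, and its loss gives thick secretions that obstruct the pancreatic ducts. Acinar cells make digestive enzymes as zymogens, duct cells add a bicarbonate-rich fluid, and endocrine cells of the islets release hormones into the blood. In the second part of gestation the mesenchyme recedes, acini fill with zymogen and islet cells become specialised.

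Cells were assigned to the 10 lineages described here by 7 to 11 marker genes each, and the names below (acinar, duct and so on) stand for cells of that gate. Intestinal, mesothelial and neuron gates with 5, 6 and 6 markers took 0, 0 and 4 cells of the CFTR-/- fetuses. Beside the markers, PRSS2, CELA3B and AMY2B led the acinar gate, and GCG, PPY and SST were among the leading genes of the endocrine gate. The duct gate had 1 of its markers among its 10 leading genes, and beside it APOA1, DCDC2, OTOL1, CPB2, CFTR and DMBT1 led. Of these CFTR is a known duct gene, while the apolipoprotein APOA1 and the carboxypeptidase CPB2 are known from the liver. Levels are given as CPM, the counts of unique molecular identifiers (UMIs) summed over the cells of a gate in a fetus, relative to the library size scaled by edgeR's TMM factors. In the 3′ counts, which do not test exon 2, the duct cells of the CFTR-/- fetuses still held CFTR transcripts, at 383, 446 and 522 CPM at 80 days and 273, 321, 716 and 226 CPM at 120 days. The log2 change with age of -0.24 ± 0.41 (SE) did not pass the test (edgeR adjusted p = 0.815).

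The libraries differed in depth and quality in ways that touch the comparison. Each held 7841217 to 72918061 UMIs and 943 to 4269 kept cells. The mitochondrial limit was exceeded by 317 of 2464, 585 of 3571 and 441 of 3990 barcodes at 80 days. At 120 days it was 1290 of 5637, 866 of 4101, 748 of 2812, 661 of 1612 and 891 of 3629. The limit of 6000 genes was reached by 120, 303 and 343 barcodes at 80 days and by 33, 83, 39, 8 and 90 at 120 days. Shares and sums are of the cells left, and the part of this loss in the differences was not tested. Fetus 3 at 120 days stood apart. It had the fewest UMIs, a median of 3425 UMIs a cell, 44.1% endothelial cells and 0 endocrine cells of 943, which allows a share of up to 0.318%. The median share of mitochondrial UMIs per kept cell was 2.84, 3.98 and 4.10% at 80 days and 4.48 to 8.60% in the 5 libraries at 120 days, so the ages did not overlap in it. Any pair of CFTR-/- libraries shared at most 7 cell barcodes, 0.263% of the smaller library. P-values measure the spread between these fetuses, and counts with their intervals cover counting error only.

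Fibroblast, myeloid, lymphoid and erythroid shares were lower in every 120-day than in any 80-day fetus, but none passed the test. Fibroblasts, the stromal cells that lay down collagen, were 23.8, 15.3 and 16.4% of the kept cells at 80 days and 9.27, 5.21, 4.88 and 1.25% at 120 days. No 120-day fetus reached the lowest 80-day fetus. Myeloid cells were 4.11, 3.98 and 3.96% against 1.28, 1.14, 0.106 and 0.303%, and lymphoid cells 6.79, 6.09 and 0.974% against 0.824, 0.446, 0 and 0.227%. Erythroid cells, which the lysis step also removes, were 3.42, 1.05 and 0.660% against 0.270, 0.446, 0 and 0.114%. Each of these 4 shares had an exact two-sided permutation p of 0.0571, the smallest that 3 against 4 animals allow, and 0.143 after Benjamini-Hochberg adjustment over 10 lineages. In edgeR's test on the cell numbers the adjusted p was 0.0507 for lymphoid, 0.0582 for erythroid and 0.127 for myeloid cells, and 0.175 for fibroblasts.

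The epithelial shares overlapped between the ages. Acinar cells were 7.68, 31.1 and 14.7% at 80 days and 44.9, 31.9, 4.24 and 32.0% at 120 days (exact permutation p = 0.457). Without fetus 3 the 120-day mean was 36.3% ± 7.46 (SD) and every 120-day fetus lay above the 80-day fetuses, with an exact permutation p of 0.1, the smallest for 3 against 3. Fetus 3 was left out because it was seen to stand apart, also in this share, so that choice favoured the separation. The closest values were 31.9% in fetus 2 at 120 days and 31.1% in fetus 2 at 80 days. Duct cells were 17.5% ± 4.34 (SD, n = 3) against 18.7% ± 12.4 (SD, n = 4), and endocrine cells 14.5% ± 8.01 against 13.2% ± 9.62. In the control fetuses the fibroblast share went from 13.0 to 18.7% at 80 days down to 3.55 to 7.42% at 120 days. The other 3 shares overlapped between the ages in controls. Myeloid cells were 0.468 to 5.03% against 0.267 to 0.959% there and lymphoid cells 1.83 to 9.76% against 0.115 to 2.16%. Erythroid cells were 0.557 to 1.30% against 0.0764 to 0.819%. In the CFTR-/- fetuses mural, Schwann and endothelial shares overlapped too, and the means of mural and endothelial cells at 120 days rested on fetus 3, with 16.8 and 44.1%. Without it they were 2.5% ± 1.09 and 4.19% ± 1.42 (SD, n = 3).

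**Figure D1:**
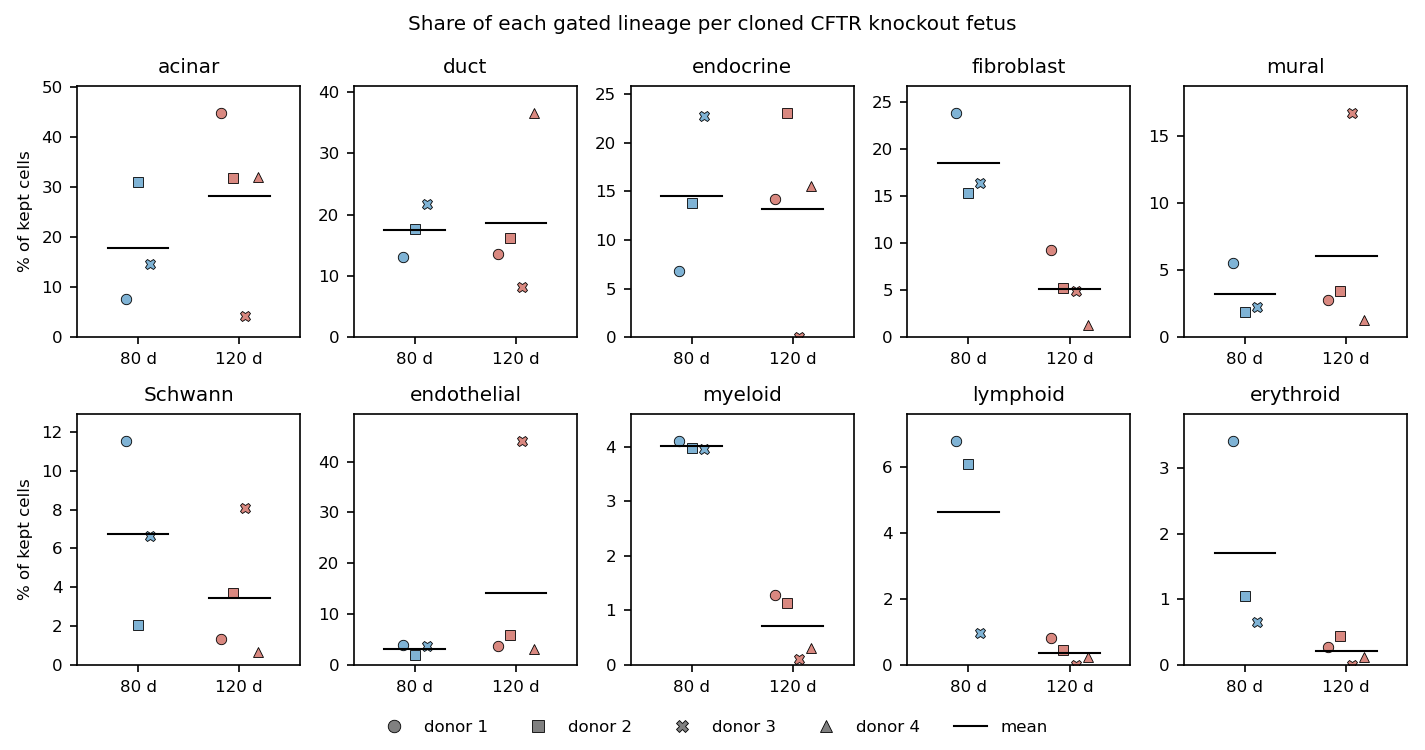
Share of each lineage among the kept cells (%, vertical axes from 0) in the 3 CFTR-/- fetuses at 80 days (blue) and the 4 at 120 days (red), with a bar at the mean. Fibroblast, myeloid, lymphoid and erythroid shares separate the ages completely, while fetus 3 at 120 days (cross) lies at 4.24% in the acinar panel and 44.1% in the endothelial panel. Donor numbers do not link fetuses across ages.

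In acinar cells CCL26, REG1A, ZG16 and HES1 rose, and PLCL2, SOX11 and NNAT fell. Of 12225 genes tested in the sums per fetus, 127 rose (1.04%) and 96 fell (0.785%) with age at an edgeR adjusted p of at most 0.05, which is 1.82% of genes called. In such sums, fewer cells in a given state and less RNA per cell cannot be told apart. Genes were named for the size of their change only if they reached at least 20 CPM in the higher age and the ages did not overlap, so the separation of such genes, here and in the other lineages, was set by their choice. Among them the largest rise was that of CCL26, an eosinophil-attracting chemokine. It stood at 35.7, 18.3 and 26.9 CPM at 80 days and 359, 347, 244 and 458 CPM at 120 days, a log2 change of 3.73 ± 0.33 (SE, adjusted p = 0.00119). Fetus 4 was the highest of the older fetuses and fetus 3 the lowest. REG1A, a secreted protein of the zymogen granule named from the study's tables, rose by 2.32 ± 0.27 (adjusted p = 0.00576), from 30.1, 15.3 and 26.0 CPM to 140, 103, 97.0 and 124 CPM. ZG16, a lectin of the zymogen granule membrane, rose by 2.26 ± 0.40, and the hepatocyte growth factor-like protein MST1 by 2.36 ± 0.51. The histone gene H2BC18 rose by 2.57 ± 0.45.

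Most digestive enzyme genes did not pass one by one. Of the 16 enzyme and zymogen granule genes tested, REG1A and ZG16 rose, 0 fell and 14 were not called. Over all acinar genes tested 1.04% rose and 0.785% fell. CLPS, the lipase cofactor colipase, is a marker of the acinar gate, so its level in these cells depends on the gating, and it was not counted with this list. It was at 752, 373 and 715 CPM against 5618, 1437, 2472 and 9518 CPM (log2 2.96, adjusted p = 0.0443). The median log2 change of the list was 0.96, beside -0.01 over all genes tested, with 14 of 16 higher at 120 days. The summed level of the list overlapped between the ages. It was 29348, 17168 and 25050 CPM at 80 days and 45284, 11363, 16361 and 55868 CPM at 120 days. In this sum fetuses 2 and 3 at 120 days lay below every 80-day fetus. At 120 days the levels split by recipient, with fetuses 2 and 3, which shared one, below fetuses 1 and 4. PRSS2, an anionic trypsinogen, was at 3267, 1854 and 3025 CPM at 80 days and at 12928, 3468, 4217 and 19677 CPM at 120 days, with a log2 change of 1.89 ± 0.59 and an adjusted p of 0.14. Cationic trypsinogen PRSS1 was at 107, 38.9 and 54.1 CPM against 566, 115, 125 and 790 CPM (adjusted p = 0.0972). In both genes the ages did not overlap, yet fetuses 2 and 3 at 120 days were close to the 80-day levels. The carboxypeptidase CPB1 was at 111, 102 and 127 CPM against 542, 100, 144 and 553 CPM, and the elastase CELA3B at 16881, 10239 and 14492 CPM against 18744, 3111, 5137 and 20133 CPM. Both overlapped between the ages (adjusted p = 0.188 and 0.901). Trypsin and elastase genes have near-identical copies, between which the counting can split reads. In the control fetuses PRSS2, CPB1, CELA3B and SPINK1 rose with age (log2 2.26, 2.64, 1.33 and 1.15), but the difference from the CFTR-/- fetuses did not pass for any of the 4 (adjusted p of 0.561 to 0.948).

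Secretory-pathway genes lay higher at 120 days, mostly without passing one by one. Of 26 genes of protein folding in the endoplasmic reticulum, 25 had a higher level at 120 days, with a median log2 change of 0.53, while PDIA2 alone rose and CREB3L3 alone fell. PDIA2, the disulfide isomerase of the pancreas, went from 254, 165 and 217 CPM to 1347, 498, 467 and 1680 CPM (log2 2.24 ± 0.48, adjusted p = 0.0452). The summed level of the list was 8683, 6960 and 9168 CPM at 80 days and 17051, 12028, 11176 and 13105 CPM at 120 days, without overlap. CREB3L3, a membrane-bound transcription factor, fell by 1.70 on the log2 scale (SE 0.28).

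The largest fall among genes named for size was that of PLCL2, a catalytically inactive relative of phospholipase C. It fell from 52.0, 58.9 and 49.3 CPM to 11.2, 9.95, 11 and 10.4 CPM (log2 -2.33 ± 0.17, adjusted p = 0.00041). The values within an age were tight. ZC3H3 fell by 2.11 ± 0.24 and SPATA22, a meiosis gene, by 1.89 ± 0.38. RNF186, a ubiquitin ligase, fell by 1.78 ± 0.32 and SAMD11 by 1.43 ± 0.26. SOX11, a transcription factor of immature cells, fell from 3.93, 19.5 and 6.71 CPM to 0.860, 2.57, 0 and 0.552 CPM, a larger log2 change (-3.17 ± 0.63, adjusted p = 0.0361) at a level under 20 CPM. NNAT, an imprinted gene active in fetal tissue, fell by 1.86 ± 0.39, and 15 of the 19 imprinted and fetal growth genes tested were lower at 120 days. Cell division genes gave no such shift, with 17 of 37 higher, 20 lower, 0 called by edgeR and a median of -0.11. HES1, the Notch target that holds progenitors back from differentiation, rose from 38.6, 33.7 and 43.6 CPM to 149, 174, 208 and 166 CPM (log2 2.17 ± 0.22, adjusted p = 0.0025).

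The acinar calls depended on single fetuses. The test took fetuses 2 and 3 of each age as separate animals, and with the fetuses of a recipient summed 29 genes were called in place of 223. Leaving out fetus 2 or 3 at 80 days left 10 and 14 called genes, and leaving out fetus 1, 2 or 4 at 120 days left 33, 105 and 156. Without fetus 1 at 80 days 98 were called, and without fetus 3 at 120 days, which had 40 acinar cells, 267. Of the 21 called acinar genes that the naming rule picked, CCL26, REG1A, PLCL2, ZC3H3 and HES1 kept their call whichever fetus was left out. Lymphoid markers in the acinar gate went from 7.79 to 21.9 CPM at 80 days down to 2.21 to 5.73 CPM over 11 genes, Schwann markers from 34.7 to 48.8 down to 20.5 to 33.8 CPM, and neuron markers from 16.9 to 24.2 down to 4.68 to 10.1 CPM. Their part in these results was not tested.

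In duct cells GPRC5A, the cytokine LIF and the AP-1 subunit FOSL1 rose, and the fetal genes IGF2BP1 and IGFBP2 fell. Of 12775 genes tested 99 rose (0.775%) and 60 fell (0.47%), 1.24% called in all. GPRC5A, a retinoic acid-induced surface receptor, was at 1.77, 0.947 and 0.974 CPM at 80 days and at 59.7, 15.3, 16.8 and 21.4 CPM at 120 days (log2 4.67 ± 0.61, adjusted p = 0.0198). LIF, a cytokine of the interleukin-6 family, rose by 3.16 ± 0.56, from at most 4.05 CPM to 31.3, 15.3, 40.0 and 9.98 CPM. FOSL1, a subunit of the AP-1 transcription factor, rose by 2.86 ± 0.33 and EEPD1 by 2.89 ± 0.37. PDK4, which limits entry of pyruvate into the mitochondrial cycle, went from 51.4, 43.0 and 35 CPM to 244, 217, 298 and 402 CPM (log2 2.75 ± 0.32). Fetus 1 was the highest older fetus in GPRC5A, FOSL1 and EEPD1, fetus 3 in LIF and fetus 4 in PDK4.

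Among the duct genes that fell was IGF2BP1, an RNA-binding protein of fetal tissue. Its level went from 18.0, 23.7 and 18.5 CPM to 2.22, 4.78, 2.58 and 0.315 CPM (log2 -3.24 ± 0.60, adjusted p = 0.0412). IGFBP2, which binds insulin-like growth factors, fell from 474, 276 and 332 CPM to 77.9, 45.9, 21.9 and 67.9 CPM (log2 -2.72 ± 0.40). The phosphatase DUSP9 fell by 2.73 ± 0.39 and the mitotic kinase NEK2 by 1.96 ± 0.38. HRASLS3, a phospholipase gene named only from the study's tables, fell by 2.28 ± 0.25. Of the 37 cell division genes tested 36 were lower at 120 days, with a median log2 change of -1.06 beside 0.03 over all genes, but RRM2 alone was called (log2 -1.49 ± 0.24). MKI67 (adjusted p = 0.0884) and TOP2A (0.0856) did not pass. The summed level of the 37 genes was 3119, 2264 and 2506 CPM at 80 days and 1321, 1655, 724 and 1652 CPM at 120 days.

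Most genes of ion transport and defence in the duct did not pass, where over all duct genes tested 0.775% rose and 0.47% fell. Of the 10 bicarbonate and chloride transport genes tested, ANO1, a calcium-activated chloride channel, rose and 9 were not called. ANO1 was low throughout, at 0.507, 0.812 and 0.877 CPM against 7.77, 4.78, 1.29 and 6.51 CPM (log2 2.88 ± 0.50, adjusted p = 0.0369). SLC4A4, the sodium-bicarbonate cotransporter of the basal membrane, was at 352, 442 and 340 CPM against 751, 384, 416 and 809 CPM, which overlapped (adjusted p = 0.369). SOX9, the transcription factor of the duct and of pancreatic progenitors, had a log2 change of 0.40 ± 0.38 (adjusted p = 0.625). Of 15 mucin and epithelial defence genes, PIGR and TFF1 rose. PIGR, which carries immunoglobulin across the epithelium, went from 2.53, 3.38 and 5.85 CPM to 15.3, 22.3, 29.7 and 17.2 CPM (log2 2.30 ± 0.36). MUC6 had too few UMIs to be tested, with at most 0.637 CPM in any fetus. HES1 rose here too, from 214, 147 and 151 CPM to 716, 943, 647 and 1137 CPM (log2 2.34 ± 0.34, adjusted p = 0.0225), while its change in the control ducts was 0.13 ± 0.40. The difference between both changes, 2.19 ± 0.56, did not pass (adjusted p = 0.316). CDKN1A, which arrests the cell cycle, rose by 3.08 ± 0.60 and BAX, which promotes apoptosis, fell by 1.57 ± 0.25.

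TFF1 and PDIA2, both called higher in duct cells, were far more abundant in acinar cells. TFF1 was at 375 CPM on average in acinar cells at 120 days and at 10.3 CPM in duct cells, and PDIA2 at 998 and 17.5 CPM. Summed acinar markers in the duct gate were 333 to 397 CPM at 80 days and 1336, 723, 132 and 1134 CPM at 120 days, so 3 of the 4 older fetuses lay higher. Other markers in this gate separated the ages. Fibroblast markers were at 103 to 189 against 26.8 to 83.2 CPM, mesothelial markers at 22.2 to 31.4 against 1.16 to 15.0 CPM and neuron markers at 2.30 to 3.04 against 0.370 to 1.29 CPM, while myeloid markers were higher, at 13.3 to 22.0 against 22.5 to 32.3 CPM. The part of RNA of these cells in the calls was not tested. The number of duct calls depended on single fetuses. Leaving out any 80-day fetus left 0 genes (fetuses 1, 2 and 3), leaving out fetus 1 at 120 days left 7, fetus 2 57 and fetus 4 68, and leaving out fetus 3 raised the number to 1300. With the fetuses of a recipient summed 70 genes were called in place of 159. None of the 21 called duct genes that the naming rule picked was kept in every case, and 2409 genes had an unadjusted p under 0.05 with all fetuses.

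**Figure D2:**
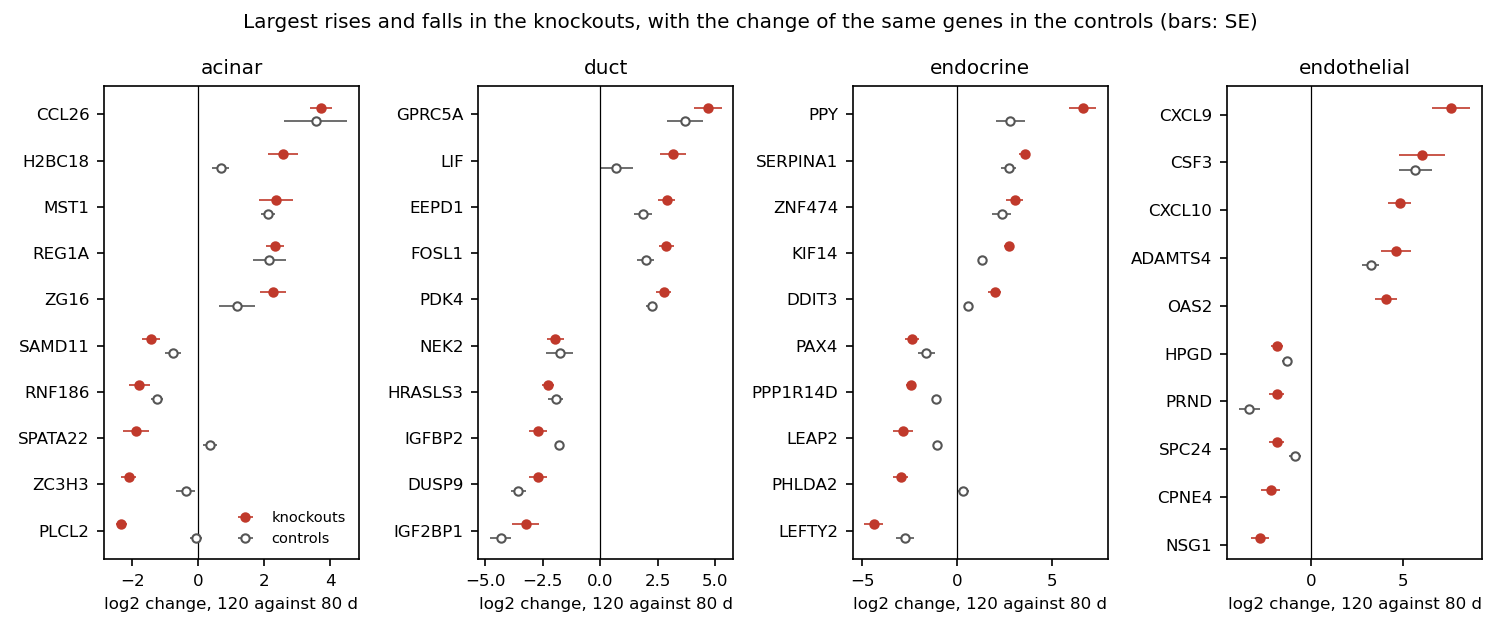
Log2 change from 80 to 120 days (horizontal axes, bars are SE) of the 5 largest rises and falls named in acinar, duct, endocrine and endothelial cells, in CFTR-/- fetuses (red) and, where tested, in control fetuses (open circles). Most control points lie on the same side of 0 as the CFTR-/- points. PLCL2 in acinar cells lies at -2.33 in CFTR-/- and -0.07 in control fetuses, and PPY in endocrine cells at 6.59 and 2.79.

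In endocrine cells the hormone gene PPY rose. Fetus 3 at 120 days had no endocrine cells, so 3 fetuses of each age were compared, and 345 of 12343 genes rose (2.8%) while 286 fell (2.32%), 5.11% called in all. PPY encodes pancreatic polypeptide, the hormone of the PP cells of the islet. It was at 1054, 350 and 868 CPM at 80 days and at 47522, 34590 and 136035 CPM at 120 days. The log2 change was 6.59 ± 0.71 (adjusted p = 0.00281), and in control fetuses 2.79 ± 0.77 (adjusted p = 0.085). The difference between the changes, 3.81 ± 1.13, did not pass (adjusted p = 0.364). The glucagon gene GCG was at 92978, 69802 and 68734 CPM against 48745, 35358 and 87252 CPM, somatostatin SST at 12372, 7085 and 9032 CPM against 7100, 9293 and 14586 CPM, and ghrelin GHRL at 65.1, 73.6 and 58.9 CPM against 194, 11.4 and 145 CPM. These 3 hormones overlapped between the ages (adjusted p of 0.46 to 0.857). The insulin gene was not analysed here.

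The share of endocrine cells with PPY as their main hormone lay higher in all 3 older fetuses, but did not pass the test. Endocrine cells were assigned, by a rule added after the data were seen, to the hormone with the most UMIs. The hormones were GCG, SST, PPY, GHRL, PYY and IAPP, and the top one had to make up at least 1% of the cell's UMIs. The classes tested were the first 4 of these and cells with no such hormone. PPY cells were 0.730, 0.543 and 1.38% of endocrine cells at 80 days (1, 2 and 10 cells) and 16.4, 26.7 and 28.3% at 120 days. The exact 95% intervals reached at most 4.00% at 80 days and began at 14.2% or higher at 120 days. The exact permutation p was 0.1, the smallest for 3 against 3, and 0.25 after adjustment over 5 classes. In control fetuses PPY cells were 0.752 to 1.86% at 80 days and 0.370, 7.77 and 3.34% at 120 days. SST cells were 10.2, 11.1 and 10.9% at 80 days and 5.70, 7.74 and 7.80% at 120 days, without overlap (exact permutation p = 0.1, 0.25 after adjustment). GCG cells were 54.2% ± 2.94 against 48.2% ± 4.32 (SD, n = 3 each). All classes are shares of the same total, so a higher PPY share by itself lowers the SST and GCG shares. Acinar cells, which should lack the gene, met the PPY rule in 0 to 0.621% of cells, at medians of 11477 to 30874.5 UMIs against 7828 to 21782 in endocrine cells. PPY was also called in duct, fibroblast and myeloid cells, at 1.29 to 123 CPM in the ducts at 120 days, levels far below those of endocrine cells.

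**Figure D3:**
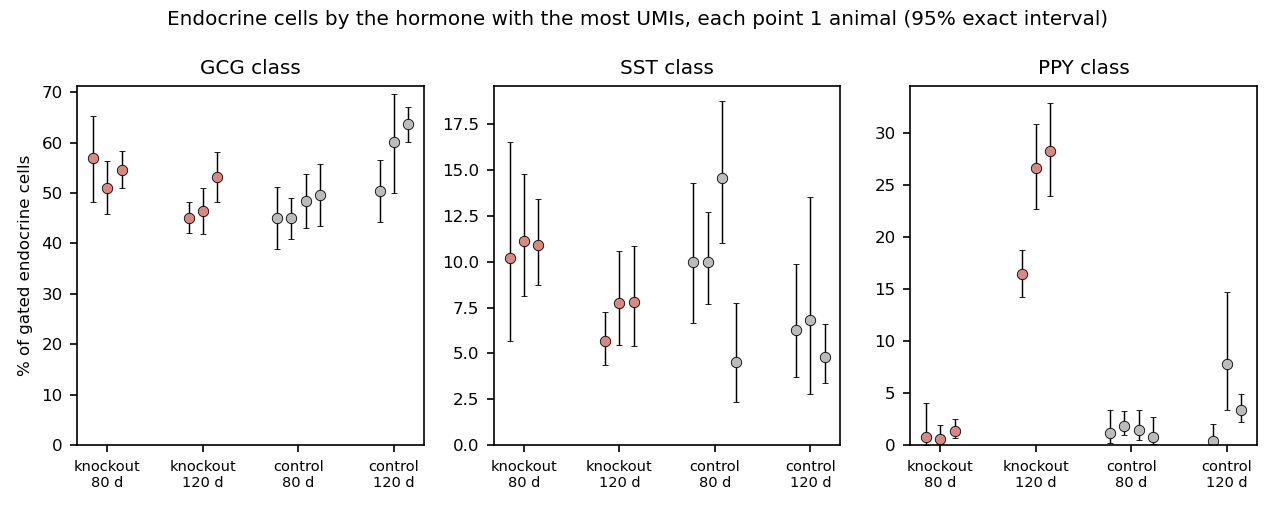
Share of endocrine cells (%) assigned to the glucagon (GCG), somatostatin (SST) and pancreatic polypeptide (PPY) classes in each fetus, with exact 95% intervals, for CFTR-/- (red) and control (grey) fetuses at 80 and 120 days. The PPY class lies between 0.543 and 1.38% in the CFTR-/- fetuses at 80 days and between 16.4 and 28.3% at 120 days. Control fetuses at 120 days lie at 0.370, 3.34 and 7.77%.

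Beside PPY, LEFTY2, PAX4 and imprinted genes fell, and SERPINA1 and DDIT3 rose. LEFTY2, a secreted inhibitor of Nodal signalling, fell from 54.3, 57.5 and 118 CPM to 6.25, 1.39 and 1.23 CPM (log2 -4.39 ± 0.50, adjusted p = 0.00391). PAX4, a transcription factor of endocrine progenitors, fell from 23.9, 20.2 and 27.6 CPM to 2.02, 5.86 and 7.40 CPM (log2 -2.39 ± 0.38, adjusted p = 0.012). IRX1 fell by 1.64 ± 0.21 and IRX2, an alpha cell factor, by 1.10 ± 0.17, whereas ETV1 rose by 0.88 ± 0.19. IRX1, IRX2 and ETV1 did not overlap between the ages, but they were named because they were called, which favours such separation. Of the 12 islet transcription factors tested, 1 rose, 3 fell and 8 were not called, with a median of -0.41. The imprinted gene PHLDA2 fell from 82.0, 196 and 142 CPM to 25.5, 6.97 and 18.8 CPM (log2 -2.99 ± 0.42), and LEAP2, an antagonist of the ghrelin receptor, fell by 2.86 ± 0.53. PPP1R14D fell by 2.44 ± 0.25.

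The imprinted and fetal growth list fell in 4 of 19 genes, NNAT, GRB10, IGF2BP1 and IGF2BP3, and 17 of the 19 were lower at 120 days (median -0.99). NNAT went from 117, 50.8 and 102 CPM to 20.4, 29.3 and 23.9 CPM (log2 -1.88 ± 0.29, adjusted p = 0.0104), and its change in control fetuses was 0.42 ± 0.30. The difference of -2.30 ± 0.47 did not pass (adjusted p = 0.189). SERPINA1, which encodes alpha-1 antitrypsin, rose from 11.8, 6.36 and 12.3 CPM to 118, 85.6 and 151 CPM (log2 3.55 ± 0.29, adjusted p = 0.00141). KIF14, a mitotic kinesin, rose by 2.69 ± 0.24 and ZNF474 by 3.01 ± 0.45, although the cell division list as such had 0 called genes and a median of 0.22. DDIT3, a transcription factor of the unfolded protein response, rose from 89.0, 80.8 and 140 CPM to 205, 444 and 560 CPM (log2 1.96 ± 0.36, adjusted p = 0.0174). Of 17 secretion and glucose sensing genes RAB3B alone was called, lower by 1.36 ± 0.26 on the log2 scale. All 17 immediate early and heat shock genes tested were higher at 120 days (median 1.09), with NFKBIA and SOCS3 called. IFI6, IRF1, IRF9 and PSMB9 rose among 17 antigen presentation and interferon genes.

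Leaving out fetus 2 or 3 at 80 days left 115 and 60 endocrine genes, leaving out fetus 2 or 4 at 120 days 200 and 205, and leaving out fetus 1 at 80 or at 120 days raised the number to 1159 and 787. With the fetuses of a recipient summed it was 90 in place of 631. PPY, SERPINA1, KIF14, LEFTY2, PHLDA2, PPP1R14D, PDIA2, IRX1, NNAT and KLF9 stayed called whichever fetus was left out, 10 of the 34 called genes that the naming rule picked. Acinar markers in the endocrine gate were 119 to 223 CPM at 80 days and 333 to 694 CPM at 120 days without overlap, and their part in calls such as that of PDIA2, which is highest in acinar cells, was not tested. Schwann markers (80.0 to 113 against 56.9 to 63.6 CPM), intestinal markers (146 to 173 against 86.2 to 90.3 CPM) and neuron markers (15.3 to 19.4 against 7.25 to 14.1 CPM) were lower at 120 days without overlap, and mesothelial markers were at most 2.08 CPM in any fetus.

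Fibroblasts changed in few genes. Of 11189 genes tested, 22 rose (0.197%) and 5 fell (0.0447%), 0.241% called in all. OAS1, an interferon-induced enzyme that senses viral RNA and has close paralogs, rose from 3.36, 3.42 and 3.96 CPM to 30.3, 48.0, 32.0 and 102 CPM (log2 3.58 ± 0.44, adjusted p = 0.00623). IFI27L1, named from the study's tables, rose from 18.0, 42.0 and 52.1 CPM to 177, 702, 320 and 532 CPM (log2 3.51 ± 0.54), and the interferon-induced GTPase MX1 by 2.79 ± 0.51. MX1 did not overlap between the ages, but it was named because it was called, which favours such separation. Of 20 antigen presentation and interferon genes MX1 alone passed, beside 0.241% of all fibroblast genes tested, and the median of the list was 0.27.

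Among the matrix genes of the fibroblasts 1 collagen passed. COL15A1, a collagen of basement membrane zones, rose from 36.9, 74.9 and 98.5 CPM to 288, 230, 721 and 368 CPM (log2 2.51 ± 0.48, adjusted p = 0.0491), and the other 12 collagens tested were not called. COL1A2 was at 13285, 6583 and 8707 CPM against 10143, 8249, 2878 and 11246 CPM (adjusted p = 0.94). POSTN, a matrix protein of growing tissue, was lower in every 120-day fetus (4579, 3231 and 3777 CPM against 2283, 1494, 2282 and 1412 CPM) but did not pass (log2 -1.05 ± 0.40, adjusted p = 0.369). Of the 25 matrix glycoproteins, 17 contractile genes and 10 retinoid genes tested, 0 were called by edgeR. Over all genes 1150 had an unadjusted p under 0.05, and DESeq2 called 94 genes. KERA, a proteoglycan, rose by 1.96 ± 0.34 and ADAMTS4, a protease that cleaves proteoglycans, by 3.04 ± 0.44. GADD45B and KLF9 rose by 1.84 ± 0.32 and 3.65 ± 0.59, and the chemokine CXCL11 fell by 2.74 ± 0.47. The growth factor IGF2, at 4817, 4418 and 4558 CPM against 5092, 4755, 2974 and 3858 CPM, and DLK1 overlapped between the ages. All 37 cell division genes were lower at 120 days (median -1.16), with 0 called by edgeR, and their sum overlapped because fetus 2 at 120 days was at 2354 CPM. At 120 days the fibroblast sums came from 686, 105, 46 and 33 cells. Without single fetuses the calls numbered 49, 5 and 3 (fetuses 1, 2 and 3 at 80 days) and 2, 9, 55 and 2 (fetuses 1 to 4 at 120 days), and OAS1 was kept in each case. Lymphoid markers in this gate were at 31.0 to 80.6 CPM at 80 days and 10.2 to 16.0 CPM at 120 days without overlap. Acinar markers in it were at 108 to 263 CPM at 80 days and at 1231, 600, 104 and 1177 CPM at 120 days. The genes called higher in fibroblasts included CLPS, PDIA2, TFF1 and PPY, which were far more abundant in acinar or endocrine cells. The part of RNA of these other cells was not tested. With the fetuses of a recipient summed 44 genes were called in place of 27.

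**Figure D4:**
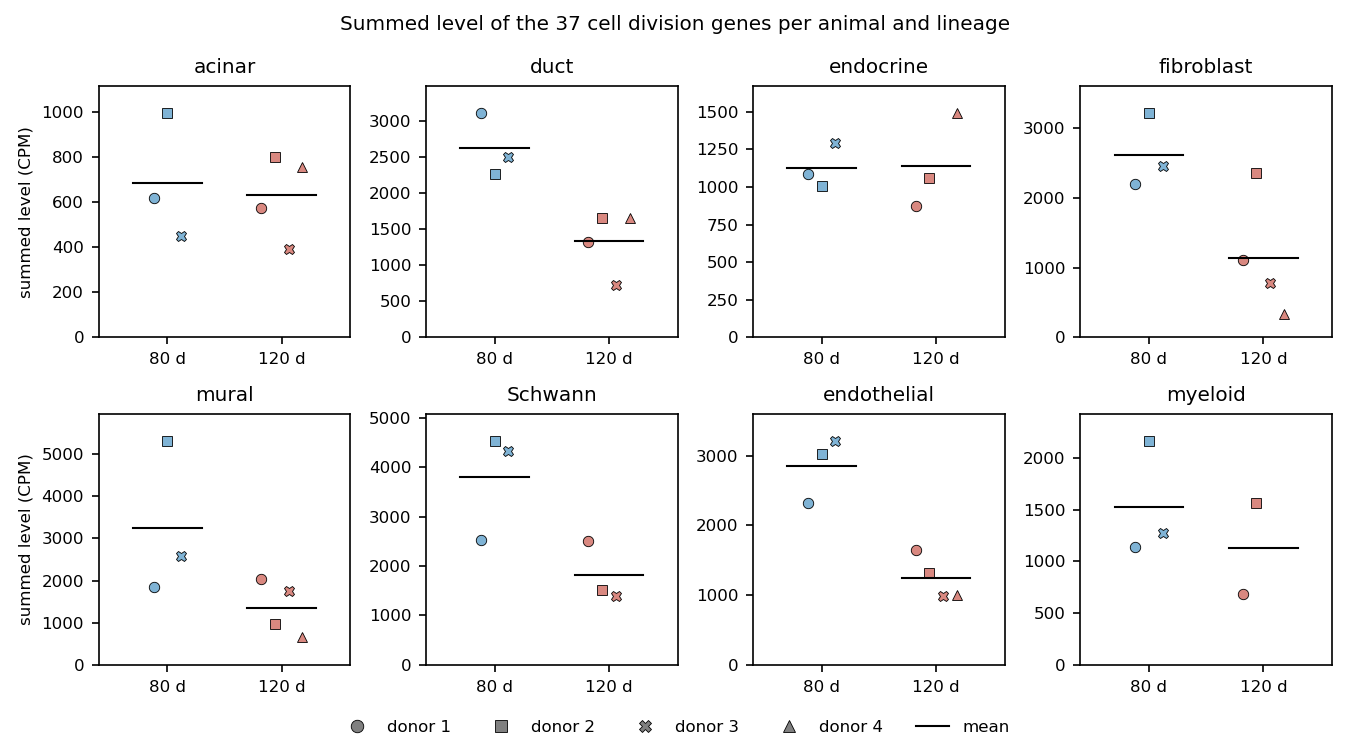
Summed level (CPM, vertical axes from 0) of 37 cell division genes in each lineage and CFTR-/- fetus at 80 days (blue) and 120 days (red), with a bar at the mean. The ages are apart in duct (724 to 1655 against 2264 to 3119 CPM) and endothelial cells, they only just miss overlap in Schwann cells, and they overlap in the other 5 lineages. Donor numbers do not link fetuses across ages.

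Mural cells, gated by markers of smooth muscle cells and pericytes, gave 8 rises (0.126%) and 7 falls (0.11%) among 6353 genes, 0.236% called in all. DESeq2 called 35 rises and 9 falls. The study lists ACTA2, TAGLN and EDNRA, markers of this gate, for its pancreatic stellate cells. The gate does not tell these from cells of the vessel wall. PROCR, the protein C receptor, rose from 5.28, 6.70 and 12.1 CPM to 65.2, 55.4, 130 and 140 CPM (log2 3.62 ± 0.48, adjusted p = 0.00327). The flippase ATP8B4 rose by 3.55 ± 0.59, ANO3 by 3.16 ± 0.59, ADAMTS4 by 2.91 ± 0.56 and the interferon-induced IFI6 by 2.43 ± 0.42. MEST, an imprinted gene expressed from the paternal copy, fell from 208, 179 and 331 CPM to 29.2, 31.7, 36.2 and 8.26 CPM (log2 -3.02 ± 0.37, adjusted p = 0.00284). A2M, a protease inhibitor named from its RefSeq entry, fell by 2.67 ± 0.37 and CDK2AP1 by 1.65 ± 0.30. PROCR, A2M and MEST stayed called whichever fetus was left out. The 17 contractile genes had a median of 0.17 with 0 called by edgeR, and TPM2 (3915, 2418 and 3394 CPM against 5334, 4297, 1522 and 3426 CPM) overlapped. The number of mural calls was 37 without fetus 1 and 9 and 8 without fetuses 2 and 3 at 80 days, and 6 without fetus 4 at 120 days. All other omissions gave 12 to 15, and summing the fetuses of a recipient gave 8. Endocrine markers in this gate (173 to 208 against 73.8 to 167 CPM) and neuron markers (8.93 to 14.1 against 0 to 3.96 CPM) were lower at 120 days without overlap, and their part was not tested.

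In Schwann cells, the glia of the pancreatic nerves, CRABP1, FABP7 and BCAN fell while HES1 and GFAP rose. Fetus 4 at 120 days had 18 Schwann cells, under the minimum of 20, and was left out, so 3 fetuses of each age were compared. Of 6380 genes 62 rose (0.972%) and 21 fell (0.329%), 1.3% called in all. CRABP1, a retinoic acid-binding protein, fell from 2701, 1152 and 2107 CPM to 64.8, 144 and 234 CPM (log2 -3.78 ± 0.47, adjusted p = 0.00438). FABP7, a fatty acid-binding protein of glial precursors, fell from 2864, 671 and 1074 CPM to 359, 205 and 149 CPM (log2 -2.68 ± 0.51). Brevican BCAN fell from 257, 61.2 and 50.2 CPM to 0, 8.22 and 3.83 CPM. Fetus 1 was the highest of the younger fetuses in each of the 3. LGI2, AKAP6 and NNAT fell by 2.70 ± 0.56, 3.28 ± 0.71 and 2.60 ± 0.44.

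The Schwann cell rises included GFAP, the intermediate filament of non-myelinating and repair Schwann cells. It went from 12.4, 4.22 and 10.6 CPM to 39.4, 32.9 and 72.8 CPM (log2 2.19 ± 0.42, adjusted p = 0.0245), and it was the single call among 12 injury and repair genes tested (median 0.24). CRYAB, a small heat shock protein, was at 1611, 933 and 789 CPM against 2253, 3323 and 1800 CPM but did not pass (adjusted p = 0.134). Of 16 myelin genes in the files 4 had enough UMIs to be tested, and 0 were called by edgeR. Myelin basic protein MBP was at 0, 0 and 0.528 CPM against 71.8, 4.11 and 0 CPM, so its UMIs came mostly from fetus 1 at 120 days. HES1 rose from 338, 131 and 169 CPM to 1121, 1130 and 1447 CPM (log2 2.52 ± 0.37, adjusted p = 0.00597). CDKN1A, HSPH1 and GADD45A rose by 3.22 ± 0.33, 2.31 ± 0.34 and 2.15 ± 0.34, and the metallothioneins MT1A and MT2A, which have near-identical copies, by 3.65 ± 0.79 and 4.24 ± 0.50. SERTAD1, ALDH1A1 and NTNG1 rose by 2.43, 3.20 and 2.5. CRABP1, HES1, SERTAD1, HSPH1, MT2A, CDKN1A and GADD45A stayed called whichever fetus was left out. The number of calls was 171 without fetus 1 at 80 days and 35 and 42 without fetuses 2 and 3 at 120 days. The other omissions gave 56 to 85, and summing the fetuses of a recipient gave 41. Fibroblast markers were at 4162 to 5360 CPM in this gate at 80 days and at 4206 to 6770 CPM at 120 days, which overlapped. Neuron markers (25.9 to 63.0 against 9.26 to 16.4 CPM) and myeloid markers (7.92 to 10.7 against 4.11 to 7.66 CPM) were lower at 120 days without overlap, and their part in these results was not tested.

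In endothelial cells the chemokines CXCL9 and CXCL10 and 6 genes of the interferon list rose. Of 8964 genes 112 rose (1.25%) and 63 fell (0.703%), 1.95% called in all. CXCL9, a T cell-attracting chemokine, was at 0.970, 1.61 and 0.711 CPM at 80 days and at 430, 113, 282 and 23.7 CPM at 120 days (log2 7.63 ± 1.05, adjusted p = 0.0062). CXCL10 went from 3.88, 6.42 and 4.27 CPM to 262, 88.5, 135 and 40.9 CPM (log2 4.83 ± 0.63), and the granulocyte growth factor CSF3 rose by 6.03 ± 1.25. Of the older fetuses, fetus 1 was highest and fetus 4 lowest in each. Another chemokine, CCL26, was at 0, 143 and 93.8 CPM against 8.37, 14.7, 5.87 and 6.46 CPM and did not pass (log2 -3.20, adjusted p = 0.0835). Of 19 antigen presentation and interferon genes tested, IFIT1, IFI6, ISG15, MX1, IRF7 and PSMB8 rose, 0 fell and 17 were higher at 120 days, with a median of 1.28. The summed level of the list overlapped, at 2657, 2207 and 2116 CPM against 6675, 6097, 2158 and 4517 CPM. In it fetus 3 at 120 days lay within the range of the 80-day fetuses. ISG15, an interferon-induced ubiquitin-like protein, was at 2.91, 9.63 and 4.27 CPM against 89.5, 208, 31.6 and 40.9 CPM (log2 4.14 ± 0.73, adjusted p = 0.0161). IFI6 rose by 4.15 ± 0.71, IFIT1 by 3.41 ± 0.54 and OAS2 by 4.08 ± 0.59. In control fetuses IFI6 rose too (log2 2.61 ± 0.25, adjusted p = 0.000529).

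The adhesion molecules SELP and ICAM1 rose as well. SELP, the P-selectin that slows leukocytes on the vessel wall, was at 30.1, 9.63 and 8.53 CPM against 403, 98.3, 323 and 40.9 CPM (log2 3.76 ± 0.74, adjusted p = 0.0252). ICAM1, which lets them adhere, rose by 2.52 ± 0.50, and both were the calls among 20 genes of endothelial specialisation (median 0.05). In control fetuses SELP and ICAM1 rose by 3.29 ± 0.34 and 3.16 ± 0.56. MEST fell from 16.5, 46.6 and 86.7 CPM to 3.66, 4.92, 6.77 and 2.15 CPM, IGF2BP1 by 3.75 ± 0.69 and MAGED2 by 1.28 ± 0.29. Of 33 cell division genes 32 were lower at 120 days (median -1.22), with TPX2 called (log2 -1.85 ± 0.36). The sum of the list was 2329 to 3215 CPM at 80 days and 994 to 1641 CPM at 120 days. NSG1, CPNE4, SPC24, PRND and HPGD were other falls, by 1.85 to 2.76. CXCL9, CXCL10 and GADD45B stayed called whichever fetus was left out. CDKN1A, which rose by 3.37 ± 0.79, lost its call in each of the 7 omissions. The number of calls was 142, 21 and 20 without fetuses 1, 2 and 3 at 80 days and 246, 77, 114 and 118 without fetuses 1 to 4 at 120 days, and summing the fetuses of a recipient gave 39. Fibroblast markers in the endothelial gate were 86.0 to 255 CPM at 80 days and 4.31 to 32.0 CPM at 120 days, with 1 of 10 at 0 in all fetuses, and myeloid markers 85.1 to 129 CPM against 23.7 to 54.6 CPM. Their part in these results was not tested.

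Myeloid cells at 120 days came from 95 cells of fetus 1 and 23 of fetus 2. Against 3 fetuses at 80 days, 37 of 7672 genes rose and 0 fell by edgeR (0.482% called, 1171 with an unadjusted p under 0.05). DESeq2 called 158 rises and 13 falls. Cathepsin L, CTSL, was at 0.914, 1.76 and 0 CPM against 27.2 and 4403 CPM, so its size rested on fetus 2. GPNMB, a glycoprotein of lipid-laden and repair macrophages, was at 0, 7.05 and 2.73 CPM against 54.5 and 763 CPM (log2 6.84 ± 1.14, adjusted p = 0.046), the single call among 16 macrophage genes. The neuropeptide gene GAL had 0 UMIs at 80 days and 27 at 120 days, at 25.1 CPM in fetus 1 and 75.3 CPM in fetus 2. GAL was also among the leading genes of the neuron gate, whose 4 cells were too few for the naming rule's comparison of levels. The interferon genes RSAD2, IFI6, ISG15 and IRF7 rose, IFI6 from 146, 72.2 and 103 CPM to 813 and 1908 CPM (log2 3.66 ± 0.45, adjusted p = 0.0325). Endothelial markers in this gate were 123 to 205 CPM at 80 days and 792 and 296 CPM at 120 days, and duct markers 53.7 to 77.7 against 79.6 and 201 CPM. Their part was not tested. Summing the fetuses of a recipient left 1 called gene. Without fetus 1, 2 or 3 at 80 days 5, 0 and 0 genes were called, and without fetus 1 or 2 at 120 days, where the single older fetus was assumed to vary like the others, 72 and 124. No gene named here was called in all 5 omissions. Lymphoid and erythroid cells reached 20 cells in 1 fetus at 120 days each and were not tested.

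**Figure D5:**
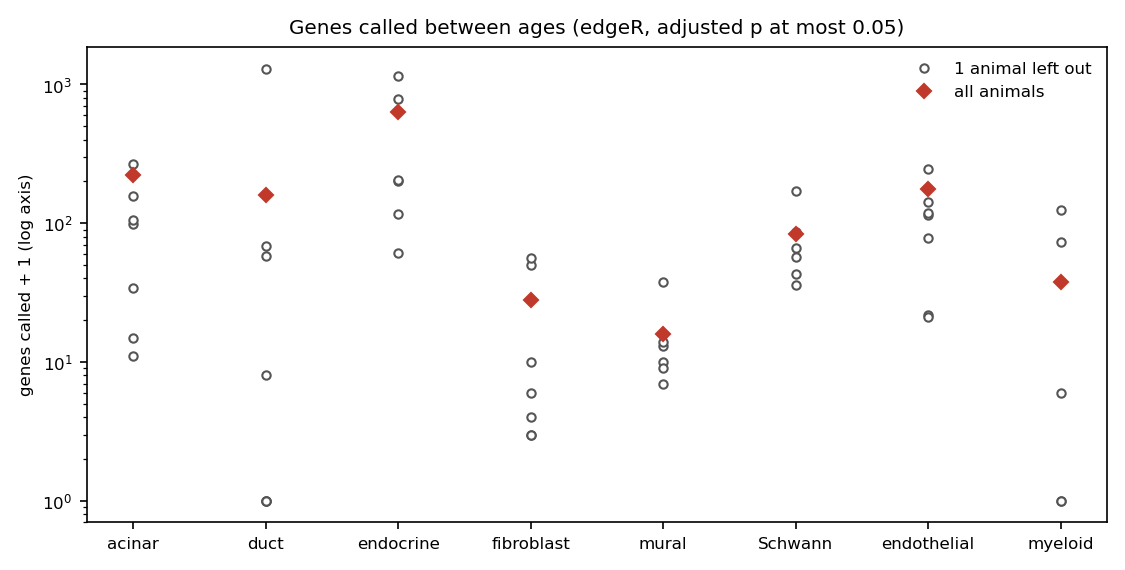
Number of genes called between 80 and 120 days in each lineage (log axis, 1 added), with all CFTR-/- fetuses (red diamonds) and after leaving out 1 fetus at a time (open circles). The spread is widest in duct cells, from 0 to 1300 calls around 159 with all fetuses.

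The age comparison was then set against animals with CFTR, to ask whether the change from 80 to 120 days differed between CFTR-/- and control fetuses. It was tested directly, as the change in CFTR-/- fetuses minus that in controls, in 6 lineages. Littermates, also those among the controls, were counted as separate animals in this test and in the tests of controls alone. No alternative summed them there. Since the CFTR-/- fetuses were cloned and the controls naturally bred, loss of CFTR and cloning cannot be told apart in it. The 2 genes that passed were both in acinar cells (0.0149% of 13450 tested). PLCL2 was at 47.1, 54.6 and 44.8 CPM in the CFTR-/- fetuses at 80 days and at 10.3, 9.07, 9.78 and 9.44 CPM at 120 days on the scale of this fit. In controls it was at 9.80, 9.93, 16.2 and 12.9 CPM at 80 days and at 10.4, 12.1 and 11.9 CPM at 120 days. The difference of -2.26 ± 0.24 (adjusted p = 0.00134) lay in the 80-day values, where every CFTR-/- fetus exceeded every control, while at 120 days all 4 CFTR-/- fetuses lay just below the lowest control. C25H10orf10, a gene known as DEPP1, was at 34.0, 21.8 and 29.1 CPM and then 20.4, 10.5, 10.5 and 20.7 CPM in CFTR-/- fetuses, and at 4.52 to 5.20 CPM and then 25.7, 18.5 and 15.3 CPM in controls. It rose in controls (log2 2.06), was not called in the CFTR-/- fetuses (log2 -0.78, adjusted p = 0.193), and the difference was -2.83 ± 0.36 (adjusted p = 0.00595). Both calls held whichever CFTR-/- fetus was left out. Without likely doublets the difference for C25H10orf10 was -2.30 and no longer passed, but fetus 3 at 120 days, with 14 acinar cells left, then also dropped out. Without fetus 3 alone it was -2.75 and passed.

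In duct, endocrine, fibroblast, mural and endothelial cells 0 genes passed this test by edgeR, with 918, 1096, 518, 284 and 602 genes at an unadjusted p under 0.05. DESeq2 called 62 genes in acinar, 39 in duct and 28 in endocrine cells, and 0 in the other 3. Without single fetuses edgeR called 2 to 8 genes in acinar and 0 to 5 in duct cells, and without fetus 1 at 80 days 85 endocrine genes were called. Schwann and myeloid cells of the controls were too few for the test. Of the acinar genes that rose in CFTR-/- fetuses and were tested in controls, 116 of 121 had the same direction there, as had 78 of 90 that fell, beside 66.2% over all acinar genes. In duct cells it was 89 of 93 and 48 of 50 beside 65.3% over all genes, in endocrine cells 294 of 325 and 246 of 272 beside 68.2%, and in endothelial cells 84 of 87 and 52 of 53 beside 65.4%. In fibroblasts all 18 that rose and all 5 that fell had the same direction in controls beside 63.6%, and in mural cells all 3 and all 5 beside 60.5%. In control fetuses alone, the share of genes called between the ages was 7.41% in acinar, 4.51% in duct, 2.26% in endocrine, 4.58% in fibroblast, 1.11% in mural and 4.64% in endothelial cells. No gene called in the CFTR-/- fetuses was called in the opposite direction in controls in any of the 6 lineages.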

How the data were processed

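Single-cell RNA was measured by 10x 3′ sequencing of fetal sheep pancreas. The authors deposited count matrices of UMIs per gene and cell barcode, with no normalisation, made with Cell Ranger 3.1.0 per the submitters' processing notes against the sheep genome Oar_v4.0. Cells with over 200 and under 6000 genes and under 25% mitochondrial UMIs were kept. A cell joined the lineage whose markers scored highest if at least 3 had a UMI and the score was 1.5 times the next. Groups came from the labels, and cloned or natural breeding from the study's list of samples. UMIs were summed per animal and lineage (minimum 20 cells) and tested with edgeR 4.0.16 (R 4.3.3; TMM, filterByExpr, quasi-likelihood test, Benjamini-Hochberg adjusted p of at most 0.05). DESeq2 1.42.0, other filters and gates, and each animal left out were alternatives. Shares were compared by exact permutation over animals (Python 3.11.15, pandas 2.3.3, SciPy 1.17.1). No doublet caller was run. Removal of cells with a second lineage score of at least 0.5 of the top, or in the top 5% of UMIs, was an alternative.

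Named genes were, per lineage, the 5 largest rises and 5 largest falls among called genes with a symbol, ages not overlapping, at least 20 CPM in the higher age, no gating, ribosomal or mitochondrial gene, and a level not far below that in the highest lineage (a ratio of at least 1 to 3). Called members of the 25 gene lists (at most 4 a list) and central members whatever their p were added. Members and lists were chosen with earlier results of these data known. Of 24478 genes 8432 had only a LOC identifier, of which 497 were named from the RefSeq table and 70 from the study's tables. The fit was tested on simulated data with log2 changes of 2 in either direction and animals drawn independently. Most changed genes were recovered there, fewest in myeloid cells. The share of unchanged genes among the calls was above the nominal level in 6 of 8 lineages, all but Schwann and endothelial cells. Smaller changes and littermates were not simulated, so recovery of these is not known. Replicate numbers were not used to pair the animals in the main tests.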

Additional observations from a re-analysis of the deposited data

Results flagged for a closer look

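Of 119 values checked over the 4 CFTR-/- fetuses at 120 days, 11 had 1 fetus far from the others, and chance alone marks about 1 in 20 groups. Fetus 3 at 120 days had 16.8% mural cells against 1.29 to 3.42% in the other 3 fetuses, and 44.1% endothelial cells against 3.11 to 5.80%. The same fetus had a summed level of p53 and damage response genes of 599 CPM in duct cells, below the 1362 to 1419 CPM of the others. Fetus 1 at 120 days was high in the summed glucocorticoid response genes, at 1921 CPM in fibroblasts against 215 to 459 CPM and at 1958 CPM in endothelial cells against 721 to 849 CPM. It was also high in CREB3L3 in acinar cells (6.47 against 3.92 to 4.08 CPM) and in GPRC5A in duct cells (59.7 against 15.3 to 21.4 CPM). In endothelial cells it was high in CSF3 (269 against 21.5 to 42.6 CPM) and CDKN1A (988 against 159 to 283 CPM). MX1 in fibroblasts was at 71.6 CPM in fetus 4 at 120 days against 19.3 to 24.0 CPM, and IFI6 in endothelial cells was at 1096 CPM in fetus 2 against 124 to 285 CPM.

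Between CFTR-/- and control fetuses the change with age differed for PLCL2 in acinar cells, by -2.26 on the log2 scale, and for C25H10orf10, by -2.83 (edgeR, test of the difference).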

How the results depend on the processing

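The naming rule picked 150 called pairs of gene and lineage, and each kept its direction under all alternatives run for it. The number of calls depended on the setting. With DESeq2 435 acinar, 878 duct, 94 fibroblast, 44 mural, 162 Schwann, 327 endothelial and 171 myeloid genes were called, and 62 acinar, 39 duct and 28 endocrine genes for the difference from controls. With no filter on low counts it was 358 acinar, 302 duct, 1146 endocrine, 132 fibroblast, 186 mural, 435 Schwann, 811 endothelial and 247 myeloid genes, and 4, 1, 8, 40 and 63 for the difference from controls in acinar, duct, endocrine, mural and endothelial cells. With littermates of a recipient summed, 29 acinar, 70 duct, 90 endocrine, 44 fibroblast, 8 mural, 41 Schwann, 39 endothelial and 1 myeloid gene were called, and with the spread shared with controls 416, 707, 1209, 155, 27, 141, 489 and 137. Stricter gates gave 255 duct and 42 fibroblast genes and 7 for the acinar difference. Under 10% mitochondrial UMIs there were 1179 duct genes, and 1 duct and 3 endocrine genes for the difference. Fetus 3 at 120 days, with 8 duct cells left, also dropped out of the duct fits there, and without it alone there were 1300 duct genes. Without likely doublets 245 duct, 23 mural and 98 myeloid genes were called, and 1 each for the acinar and endocrine difference, the acinar one without fetus 3 at 120 days, which had 14 cells left. RLE size factors gave 63 myeloid genes, and leaving out ribosomal, mitochondrial and acinar enzyme genes gave 65. Leaving out 1 animal gave 10 to 267 acinar, 0 to 1300 duct, 60 to 1159 endocrine, 2 to 55 fibroblast, 6 to 37 mural, 35 to 171 Schwann, 20 to 246 endothelial and 0 to 124 myeloid genes, and 2 to 8 acinar, 0 to 5 duct and 0 to 85 endocrine genes for the difference. The cause was not tested.

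Replicate numbers were not used to pair the animals in the main tests. Same-numbered animals had correlations of -0.2253 to 0.4433, and 8 of 20 pairs were over 0.1. For the fetuses numbered 1 the correlation was 0.443 in fibroblasts, 0.412 in endothelial and 0.343 in mural cells. It was 0.00872 in acinar and -0.225 in endocrine cells. Whether these fetuses share a batch was not tested. With a replicate block 11 endocrine, 162 fibroblast, 137 mural, 185 Schwann, 783 endothelial and 10 myeloid genes were called, beside 203 acinar and 154 duct genes. PPY, PHLDA2, PDIA2, NNAT and KLF9 in endocrine cells, called whichever fetus was left out, were not called in it. Except in Schwann cells, this fit also lost the fetuses with no same-numbered animal at the other age, leaving 2 of each age in endocrine and myeloid cells and 3 of each age in the others.

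Uncalled genes changed sign. IGF2 in acinar cells (log2 change -0.06) was at 0.50 with stricter gates, 0.00098 under 10% mitochondrial UMIs, 0.49 without doublets, 0.40 with DESeq2, 0.35 with the block and -0.80 to 0.88 with an animal left out. SST in endocrine cells was at -0.046 with stricter gates, -0.054 without doublets, -0.00023 with recipients summed, -0.20 with the block and -0.21 to 0.38 with an animal left out. With the block GHRL was at -0.43, MKI67 in endocrine cells at 0.59 and DLK1 in fibroblasts at -0.19. With stricter gates POSTN in mural cells was at 0.34 and TOP2A in myeloid cells at 0.10. With an animal left out, acinar values ran from -0.62 to 0.082 for CELA3B, -0.022 to 0.98 for SPINK1, -0.26 to 1.43 for MKI67 and -0.57 to 0.61 for TOP2A. MKI67 in endocrine cells ran from -0.56 to 0.39. In fibroblasts the ranges were -0.086 to 0.46 for DLK1, -0.44 to 0.11 for COL1A2, -0.79 to 0.12 for FN1 and -0.39 to 0.014 for SPARC. In mural cells they were -0.11 to 0.030 for SPARC and -0.076 to 0.43 for TPM2, in Schwann cells -0.12 to 0.64 for PMP22 and in myeloid cells -0.43 to 0.18 for TOP2A.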

Other observations

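Some genes changed with age in several lineages. These were singled out after their values were seen. Of the 40 genes called in at least 3 lineages, 34 rose in each of them and 6 fell in each (CDK2AP1, DBN1, BASP1, IGF2BP1, NNAT and UHRF1). CDKN1A and HES1 rose in acinar, duct, endocrine, Schwann and endothelial cells, by 1.22 to 3.37 and by 2.17 to 2.58 on the log2 scale. The mitochondrial transcript MT-ATP8 rose in the same 5 lineages by 2.03 to 2.64, and MT-ND4L in 4 by 1.67 to 2.41, while the median mitochondrial share of the libraries was higher at 120 days as well. The part of that share in the calls was not tested. KLF9, a glucocorticoid-responsive transcription factor, rose in endocrine, fibroblast, mural and endothelial cells by 2.44 to 3.65. Its level in fibroblasts was 2.30, 1.24 and 1.16 CPM at 80 days and 33.8, 3.43, 8.01 and 20.5 CPM at 120 days.

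Colipase, CLPS, a product and gating marker of acinar cells, was called in 5 lineages with log2 changes of 2.96 to 5.40, among them acinar cells, where its level depends on the gating. In duct cells it was at 1.77, 1.35 and 2.34 CPM at 80 days and at 65.0, 16.6, 12.9 and 46.3 CPM at 120 days, and in acinar cells it was at 1437 to 9518 CPM at 120 days. The summed acinar markers in the duct gate, of which CLPS is 1 of 7, were at 1336, 723, 132 and 1134 CPM at 120 days. The part of acinar RNA in these calls was not tested.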
